A study of Mus musculus with 16 samples.

Results

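The p53 target and cell cycle inhibitor genes Cdkn1a, Mdm2, Ccng1, Trp53inp1, Btg2, Cdkn2b and Cdkn1b were followed in endothelial cells of the mouse lung at 4 stages of an experimental metastasis model. They were chosen by name, and these 7 of the 28692 genes in the deposited count matrix were all detected on every day. Lewis lung carcinoma, a transplantable mouse lung cancer line, was grown under the skin of female C57BL/6N mice. The labels give wild-type lungs as d0, lungs of primary tumour-bearing mice as d15, lungs after removal of the tumour as d22, and metastasis-bearing lungs as d36. The 4 groups share strain and sex, and all cells were sorted as endothelial before single-cell RNA sequencing of transcript 3′ ends. The number of animals pooled on a day is not given in the sources used here.

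The matrix held 9036 cells, of which 8868 were kept as endothelial. These were 2629 cells on d0, 1485 on d15, 3177 on d22 and 1577 on d36. The labels name 4 libraries for each day, but the cell names carry the day only, so each day is 1 pooled sample without a replicate, no difference between days was tested, and every interval below is a 95% interval for counting error alone. Depth differed between the days, with a median of 7646 unique molecular identifier counts (UMIs) per cell on d0, 4168 on d15, 7664 on d22 and 3408 on d36. The non-zero entries of the matrix piled up at 4 (45.2 to 54.8% of entries, against 2.79 to 3.16% at 5), so a UMI was not treated as an independent molecule and all intervals were taken on counts divided by 4; the cause of the pile-up was not tested. Pan-endothelial markers (Pecam1, Cdh5 and 6 others) summed to between 11456 and 13277 counts per 1000000 UMIs (CPM) on each day, whereas epithelial markers summed to between 102 and 186 CPM. Erythroid and platelet markers reached at most 42.5 CPM on a day, mural markers 28.6, macrophage markers 22.9, B cell markers 21.1 and leukocyte markers 16.6 CPM. Markers of other cell types that were at 0 on every day included Klrb1c, Cspg4, Msln, Wt1 and Lrrn4. All these sums are over the kept cells, after clusters and cells rich in markers of other types were left out. The low values of other cell types are thus partly set by that step. Between days, 36 cell barcodes were shared.

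The transcription factor p53 is stabilised by DNA damage and other stress and switches on genes that stop the cell cycle, repair DNA or start cell death. Cdkn1a encodes p21, the best known of these, which binds and blocks cyclin-dependent kinases (CDKs). Mdm2 encodes the ubiquitin ligase that degrades p53 and closes a feedback loop. Ccng1 encodes cyclin G1, Trp53inp1 a stress-induced nuclear protein that acts with p53, and Btg2 an antiproliferative adaptor of mRNA deadenylation that is also an immediate early gene. Cdkn2b encodes p15 and Cdkn1b encodes p27, CDK inhibitors that act outside the p53 pathway: p15 binds CDK4 and CDK6 and is a classical target of TGF-beta, and p27 restrains CDK2 in resting cells. In the alveolus, the general capillary cell maintains and repairs the capillary bed, whereas the aerocyte is a large, thin endothelial cell apposed to the air space.

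The promoters were searched for the p53 half-site and for the cyclic AMP response element TGACGTCA, because both kinds of element are textbook inputs to genes of this group. RefSeq promoter windows on GRCm38.p6, which reach from 250 bases before to 50 bases after a transcription start, were matched for 6 of the 7 genes, with 2 starts for Cdkn1a. The half-site of 10 bases, a motif that reads the same on both strands, occurred in 8.36% of 32851 windows, TGACGTCA in 1.79%, and at least 2 half-sites in 0.359%. The upstream Cdkn1a window held 2 half-sites, at 73 and 51 bases before the start site, and the Ccng1 and Mdm2 windows held 1 each, at 185 and 186 bases before it. The Btg2 and Cdkn2b windows held 1 TGACGTCA each, 166 and 46 bases before the start site. The Cdkn1b window and the window of the other Cdkn1a start held neither, which says only that these letters are absent there. A match is a description of the sequence and not evidence of binding. The stretches of 100 bases around the matches are shown to place these elements, 5′ to 3′ on the gene's own strand, with the matches in capitals. They lie at chr17:29090849-29090948 (plus strand, Cdkn1a), chr10:117710890-117710989 (minus, Mdm2), chr11:40755417-40755516 (minus, Ccng1), chr1:134079268-134079367 (minus, Btg2) and chr4:89311063-89311162 (minus, Cdkn2b).
Cdkn1a: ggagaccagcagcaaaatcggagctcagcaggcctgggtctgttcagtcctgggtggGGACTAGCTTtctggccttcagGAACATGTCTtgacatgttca
Mdm2: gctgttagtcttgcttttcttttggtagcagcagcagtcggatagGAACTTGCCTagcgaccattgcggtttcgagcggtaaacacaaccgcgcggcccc
Ccng1: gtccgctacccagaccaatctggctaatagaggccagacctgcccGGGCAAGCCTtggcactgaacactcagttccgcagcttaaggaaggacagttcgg
Btg2: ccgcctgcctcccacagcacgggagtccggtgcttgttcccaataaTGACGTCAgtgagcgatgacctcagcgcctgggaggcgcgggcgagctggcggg
Cdkn2b: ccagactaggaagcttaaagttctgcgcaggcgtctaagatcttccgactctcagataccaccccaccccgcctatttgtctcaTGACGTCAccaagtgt

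The genes did not move together over the days. Cdkn1a had its highest levels on d15 and d36 and its lowest on d22, Cdkn2b was lower on d15 and d36 than on d0, Ccng1 was lower on d15 and d22 than on d0 in the summed counts, and Btg2 and Mdm2 stayed within 1.5-fold of d0 throughout. A 1.5-fold difference, up or down, among genes with at least 10 CPM on either day and 100 UMIs over both, was used as a rule of size. On d15 against d0, 3 of the 7 genes were past it, all lower (Ccng1, Trp53inp1 and Cdkn2b), where 12.8% of 8416 measured genes were past it in either direction and 5.45% were lower. On d22 against d0, 1 of the 7 was past it (Ccng1, lower), where 3.66% of 8166 genes were in either direction and 3.06% lower. On d36 against d0, 1 of the 7 was past it (Cdkn2b, lower), where 13.5% of 8369 genes were in either direction and 7.26% lower. These comparisons share the d0 sample and are not independent of each other. The median log2 ratio of the 7 genes to d0 was -0.03 on d15, -0.00 on d22 and 0.06 on d36, beside 0.02, -0.01 and -0.03 over all measured genes, so the group as a whole had no common direction.

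**Figure D1:**
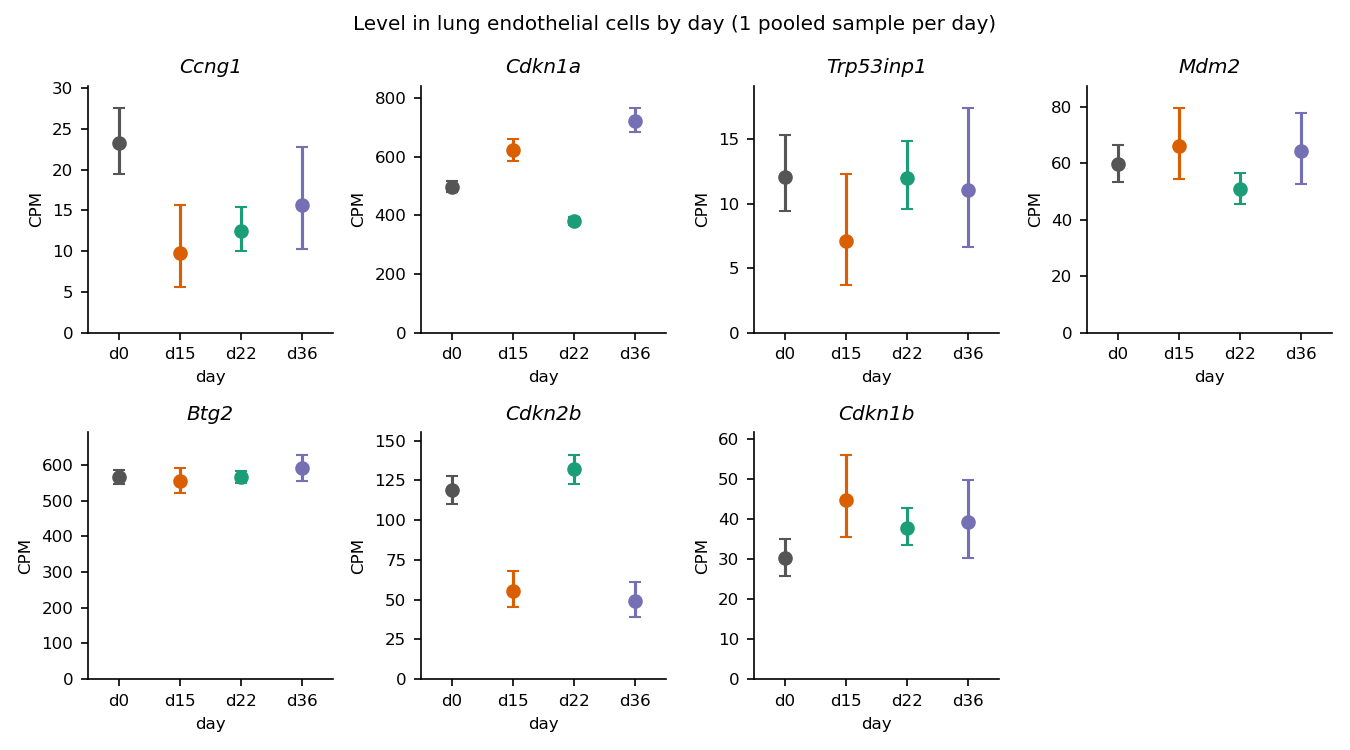
Level of each gene in CPM (vertical axis, from 0) by day (horizontal axis); points are the pooled endothelial cells of 1 day and bars the 95% counting interval. Cdkn1a stood at 497, 621, 380 and 722 CPM and Cdkn2b at 119, 55.7, 132 and 49.2 CPM on d0, d15, d22 and d36, whereas the 4 Btg2 values lay between 555 and 590 CPM.

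Between the later days, 3 of the 7 genes were past the rule on d22 against d15 (Cdkn1a lower, Trp53inp1 and Cdkn2b higher), where 13.2% of 8364 genes were. On d36 against d15, 2 of the 7 were past it (Ccng1 and Trp53inp1, both higher), where 9.97% of 8385 genes were in either direction and 3.67% higher; for these 2 genes both intervals included 1. On d36 against d22, 2 of the 7 were past it (Cdkn1a higher and Cdkn2b lower), where 13.6% of 8310 genes were. Cdkn1a and Cdkn2b are thus the genes with the clearest day values, in opposite directions.

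**Figure D2:**
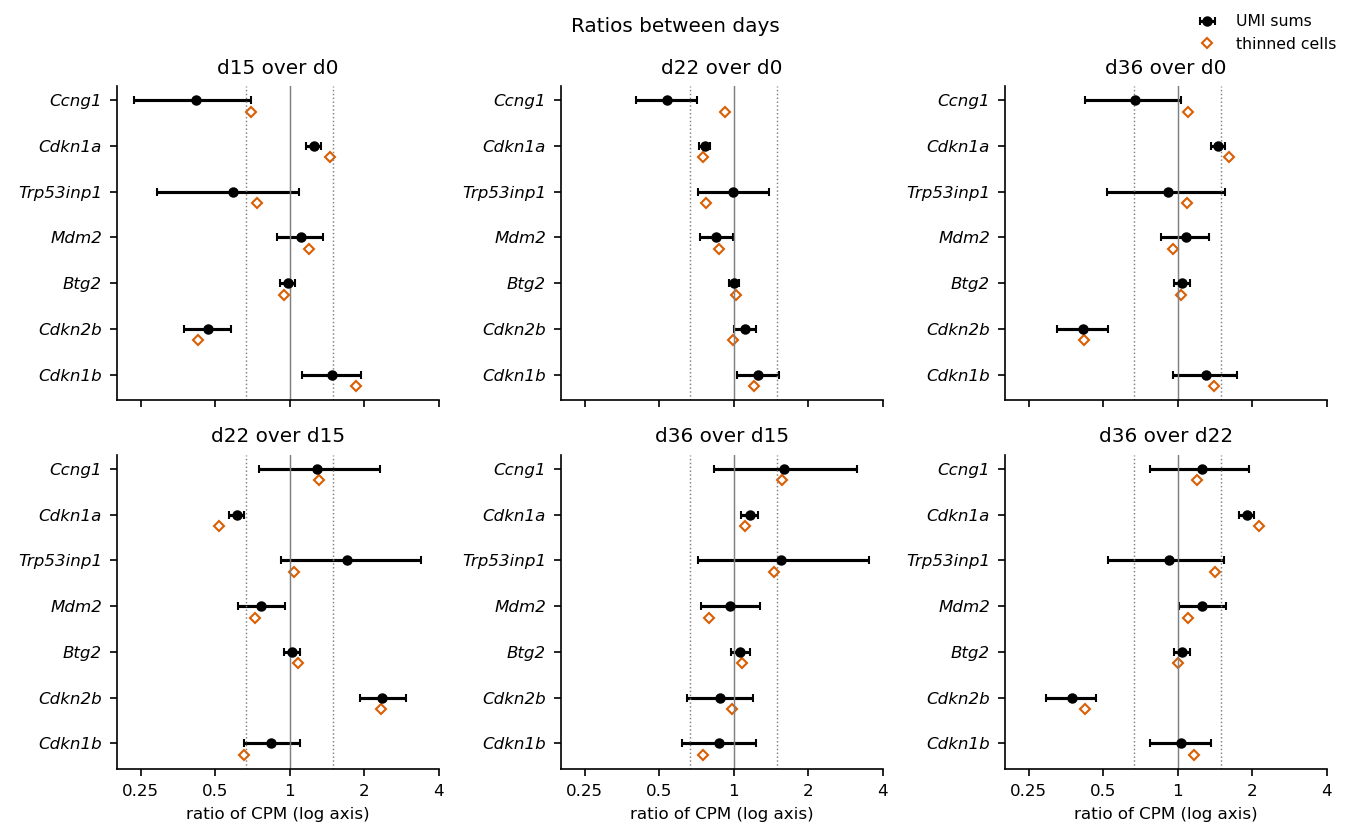
Ratio of CPM between the later and the earlier day (horizontal log axis) for each gene, with filled points and 95% counting intervals from the summed UMIs and open diamonds from cells thinned to 1200 UMIs each; the dotted lines mark a ratio of 1.5 in either direction. Cdkn2b lay at 0.469 on d15 and 0.415 on d36 over d0, and Cdkn1a at 1.9 on d36 over d22, while the summed and thinned values of Ccng1 over d0 stood apart.

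Cdkn1a, the p21 gene, lies at chr17:29090976-29100727 (GENCODE M21, plus strand). It overlaps AC167363.2 on the other strand, and whether the counting used strand is not given in the sources used here. It had 497 CPM (479 to 516) on d0, 621 (585 to 660) on d15, 380 (365 to 394) on d22 and 722 (682 to 764) on d36, from 4287 to 11410 UMIs. The metastasis-bearing and primary-tumour days were the high ones, the day after resection was the lowest, and no 2 of the 4 intervals overlapped. The high days were also the days of low depth, with medians of 4168 UMIs per cell on d15 and 3408 on d36. The medians were 7646 on d0 and 7664 on d22. A difference between the libraries of these days cannot be told apart from tumour stage. The ratio to d0 was 1.25 on d15 (1.16 to 1.34), 0.763 on d22 (0.724 to 0.805) and 1.45 on d36 (1.36 to 1.55), all under the 1.5 rule, and d36 over d22 was 1.9 (1.77 to 2.04).

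The d36 difference in Cdkn1a from d0 was larger where depth or cell mixture was held alike, which cannot remove a difference between the libraries of the days. Thinning every cell to 1200 UMIs gave a d36 over d0 ratio of 1.61, and weighting the vessel classes to the same shares 1.7. Cells of 2600 to 6000 UMIs on both days gave 2.24. All 3 are past the rule. The last setting kept 855 of 2629 cells on d0 and 613 of 1577 on d36, and did not hold the mixture alike. The aerocyte-like cluster led by Fibin, described below and high in Cdkn1a, had medians of 14568 UMIs on d0 and 9540 on d36, above that range. Early response and dissociation genes, which include heat shock and immediate early genes that tissue digestion can switch on, summed to 11615 CPM on d0, 14244 on d15, 12054 on d22 and 14138 on d36. Of 15 measured genes of this list, 2 were past the rule on d36 against d0, both higher. Over all measured genes, 13.5% were past it in either direction, and the count of this list was near that share. The list was mixed: 10 of the 15 had a ratio above 1. Fos (1130 against 1281 CPM), Fosb (143 against 199 CPM) and Egr1 (275 against 331 CPM) were among those below 1. Dusp1, a phosphatase gene induced by stress, was at 1373 CPM on d36 against 861 on d0, and Hspa1a, a heat shock gene, at 130 against 58.5 CPM. Klf2, a flow-responsive transcription factor gene, was also higher on d15 (4049 CPM, 1.54 times d0) and on d36 (4487 CPM, 1.7 times d0, where d0 had 2638 CPM). The part of these genes in the Cdkn1a values was not tested.

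Mdm2, at chr10:117688875-117710758 (minus strand), was nearly level. It had 59.6 CPM (53.5 to 66.3) on d0, 66.1 (54.5 to 79.4) on d15, 50.8 (45.6 to 56.4) on d22 and 64.2 (52.6 to 77.6) on d36. The day after resection was again the lowest, at 0.851 of d0 (0.731 to 0.991). The d36 over d22 ratio of 1.26 (1.01 to 1.57) had the same direction as that of Cdkn1a and was smaller.

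Ccng1, at chr11:40748552-40755311 (minus strand), was rare: 533 UMIs in 160 cells on d0, 67 in 22 cells on d15, 343 in 120 cells on d22 and 104 in 34 cells on d36. Its level was 23.2 CPM (19.5 to 27.5) on d0, 9.71 (5.63 to 15.6) on d15, 12.5 (9.98 to 15.4) on d22 and 15.6 (10.2 to 22.8) on d36, so that d0 was the highest day. The ratio to d0 was 0.418 on d15 (0.235 to 0.697), 0.537 on d22 (0.405 to 0.71) and 0.67 on d36 (0.422 to 1.03). In cells thinned to 1200 UMIs the same ratios were 0.701, 0.921 and 1.1, none past the rule. The thinned cells held 21 Ccng1 UMIs on d15, 59 on d22 and 53 on d0. Thinning was drawn at random, and these ratios carry no interval. The d15 and d0 counts together are under the 100 UMIs that the rule asks for, so this d15 ratio could not be past it. In cells of 2600 to 6000 UMIs the ratios were 0.696 on d15 and 0.668 on d22, the latter just inside the rule. With every cell weighted equally they were 0.545 and 0.636, and in cells of at least 2600 UMIs 0.394 and 0.536. The lower Ccng1 level on d15 and d22 was thus past the rule in the sums and under both of these last settings. In thinned cells and in cells of 2600 to 6000 UMIs it was not. Over all cells d0 and d22 already had like depth, with medians of 7646 and 7664 UMIs.

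Trp53inp1, at chr4:11156431-11174379 (plus strand), had 12.1 CPM (9.4 to 15.3) on d0, 7.1 (3.7 to 12.3) on d15, 12 (9.59 to 14.9) on d22 and 11.1 (6.62 to 17.4) on d36. Only d15, with 49 UMIs in 15 cells, was low, at 0.588 of d0 with an interval from 0.292 to 1.09. That ratio was 0.741 in thinned cells, 0.502 in cells of 2600 to 6000 UMIs and 0.496 in cells of at least 2600 UMIs. The reported interval included 1.

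Btg2, at chr1:134075170-134079120 (minus strand), was the steadiest gene of the group over the days. It had 566 CPM (547 to 586) on d0, 555 (520 to 591) on d15, 566 (549 to 584) on d22 and 590 (554 to 628) on d36, and the 4 intervals overlapped. Its ratio to d0 was 0.981 on d15 (0.912 to 1.05), 1 on d22 (0.955 to 1.05) and 1.04 on d36 (0.971 to 1.12).

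Cdkn2b, the p15 gene, lies at chr4:89306299-89311039 (minus strand), next to Cdkn2a. It had 119 CPM (110 to 128) on d0, 55.7 (45.1 to 68) on d15, 132 (123 to 141) on d22 and 49.2 (39.2 to 61.1) on d36. Both tumour-bearing days were low and both other days high, with no overlap between the 2 pairs. The ratio to d0 was 0.469 on d15 (0.374 to 0.581) and 0.415 on d36 (0.326 to 0.522), against 1.11 on d22 (1 to 1.23). The d22 over d15 ratio was 2.37 (1.92 to 2.95), and d36 over d22 was 0.374 (0.295 to 0.469).

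The aerocyte markers moved with Cdkn2b. The 8 of them summed to 3294 CPM on d0, 2512 on d15, 3402 on d22 and 2269 on d36, and the aerocyte-like class described below was 18.5% (17 to 20), 12.2% (10.6 to 14), 17.6% (16.3 to 19) and 16.3% (14.5 to 18.2) of endothelial cells on these days (exact Clopper-Pearson intervals). The low days were also the days of low depth. With the classes weighted to the same shares, the ratio to d0 was 0.656 on d15 and 0.567 on d36, and in cells of 2600 to 6000 UMIs it was 0.516 on d15 and 0.658 on d36. In these cells the d36 over d22 ratio was 0.883 and the d22 over d15 ratio 1.44, both inside the 1.5 rule. Cells of this range held only 71 of 384 Cdkn2b UMIs on d15 and 189 of 2725 on d0. The aerocyte-like cluster led by Fibin, described below, had medians of 9540 to 14924 UMIs per cell, above the range.

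Cdkn1b, the p27 gene, at chr6:134920401-134925513 (plus strand), had 30.2 CPM (25.9 to 35.1) on d0, 44.9 (35.5 to 56.1) on d15, 37.9 (33.5 to 42.8) on d22 and 39.2 (30.3 to 49.9) on d36. All 3 later days were above d0, and d15 was the highest. The ratio to d0 was 1.49 on d15 (1.12 to 1.95), just inside the rule, 1.25 on d22 (1.03 to 1.53) and 1.3 on d36 (0.96 to 1.73). In thinned cells the d15 ratio was 1.85.

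Vessel classes were obtained from 18 clusters of cells, built without the 7 genes or the pathway lists used here, and named by marker genes. General capillary-like cells, which carry Gpihbp1, Plvap, Kit and Aplnr among other markers, numbered 1670 on d0, 1086 on d15, 2166 on d22 and 1064 on d36; some of their clusters were assigned by marker scores alone, with few of these markers among the leading genes. Aerocyte-like cells, marked by Car4, Ednrb, Tbx2 and Fibin among others, numbered 486, 181, 560 and 257. Arterial-like cells numbered 143, 74, 166 and 62, and venous-like cells 140, 60, 127 and 39, of which the last was under the minimum of 50 and was not compared. In each class, a gene was counted when its level differed at least 1.5-fold from all other endothelial cells in the same direction on each day compared. In aerocyte-like cells 2 of the 7 genes were past this rule (Cdkn2b higher and Btg2 lower), where 16% of 7740 measured genes were. In general capillary-like cells it was 1 of 6 measured (Cdkn2b, lower), where 9.05% of 7772 genes were past it and 4.88% were lower. In arterial-like cells it was 1 of 6 (Cdkn2b, lower), where 7.22% of 7768 genes were past it and 3.91% were lower. In venous-like cells, over 3 days, it was 1 of 5 (Cdkn2b, lower), where 11% of 7882 genes were past it and 6.12% were lower. The classes are clusters of the same cells, and these differences were not tested.

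Cdkn2b was concentrated in aerocyte-like cells, at 400 CPM (369 to 433) on d0, 262 (206 to 328) on d15, 457 (427 to 489) on d22 and 220 (171 to 279) on d36. All other endothelial cells together had 14.9, 14.1, 13.1 and 10.1 CPM. The ratio of aerocyte-like to other cells was 26.9 on d0 (20.7 to 35.5), 18.6 on d15 (11.3 to 32), 35 on d22 (27.2 to 45.7) and 21.7 on d36 (12.1 to 42.1). After thinning to 1200 UMIs, a Cdkn2b UMI was found in 29.6% (25.6 to 33.9), 16.6% (11.5 to 22.8), 31.1% (27.3 to 35.1) and 10.9% (7.36 to 15.4) of aerocyte-like cells. General capillary-like cells, as a measure of background, had one in 1.5, 0.645, 1.25 and 0.564% of cells. In general capillary-like cells the level was 14.7, 10.1, 12.7 and 8.52 CPM, and in arterial-like cells 14, 22.2, 19.9 and 13 CPM, with wide intervals. Cdkn2b was not used in the clustering, yet it was among the 10 leading genes of the larger aerocyte-like cluster. The lower Cdkn2b on the tumour-bearing days was also present within aerocyte-like cells, at 0.655 of d0 on d15 (0.509 to 0.833) and 0.55 on d36 (0.422 to 0.707).

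**Figure D3:**
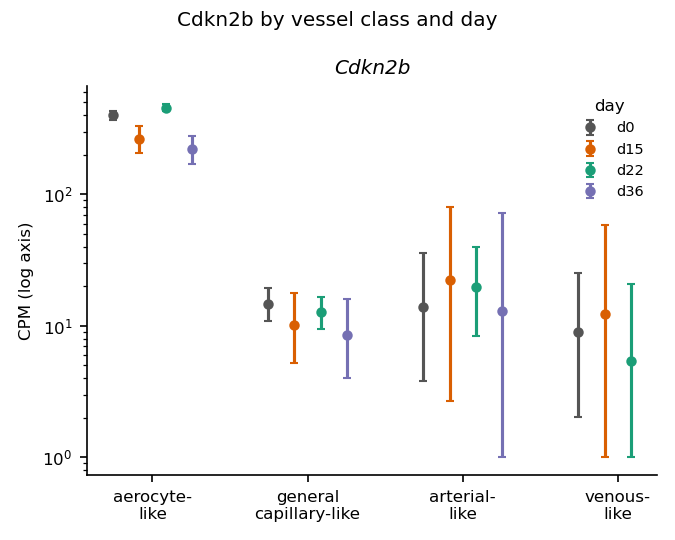
Cdkn2b level in CPM (vertical log axis) in 4 vessel classes (horizontal axis) by day (colours), with 95% counting intervals whose lower ends are drawn no lower than 1 CPM; venous-like cells of d36, which numbered 39 and had no Cdkn2b UMI (0 to 66 CPM), are not drawn. Aerocyte-like cells sit at 220 to 457 CPM, above the other 3 classes on every day.

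The aerocyte-like class was made of 2 clusters whose shares differed between the days. The cluster led by Fibin and Ednrb held 14.5% of endothelial cells on d0, 5.45% on d15, 14.4% on d22 and 4.82% on d36, and its Cdkn2b level was 412 CPM (379 to 447), 298 (228 to 382), 473 (441 to 507) and 265 (196 to 351). The cluster led by Tbx2 and Lmo7 held 3.99, 6.73, 3.27 and 11.5%, and its Cdkn2b level was 263 CPM (181 to 368), 173 (95 to 288), 230 (153 to 332) and 156 (95.1 to 240). In both clusters d15 and d36 were below d0 and d22. The intervals of d36 and d0 did not overlap in the Fibin cluster and did overlap in the Tbx2 cluster, and cells of the Tbx2 cluster had fewer UMIs (a median of 2426 to 4266, against 9540 to 14924 in the Fibin cluster).

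Cdkn2a, which encodes p16 and the p53 activator p19Arf at the neighbouring locus chr4:89274471-89294653 (minus strand), was past the class rule in the same direction. It had 27.3 to 106 CPM in aerocyte-like cells, against 0.736 to 2.83 CPM in other endothelial cells. Over the days it stood at 10.5 CPM on d0, 18.6 on d15, 12.4 on d22 and 5.69 on d36, so that it was high on d15, where Cdkn2b was low. Cdkn1c, the p57 gene, had 117 to 191 CPM in arterial-like cells, against 26.5 to 38.1 CPM in other endothelial cells, and 6.78 to 16.9 CPM in aerocyte-like cells, against 44.9 to 56.9 CPM in the others. Different CDK inhibitor genes were thus high in different vessel classes.

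Cdkn1a was also higher in aerocyte-like cells than in the rest, at 848 CPM on d0, 910 on d15, 629 on d22 and 901 on d36. The ratio to other endothelial cells was 2.31 on d0 (2.14 to 2.48), 1.62 on d15 (1.4 to 1.86), 2.18 on d22 (2.02 to 2.36) and 1.32 on d36 (1.15 to 1.51), so it was past 1.5 on 3 of 4 days. General capillary-like cells had 350, 561, 277 and 724 CPM. Within them the ratio to d0 was 1.6 on d15 (1.45 to 1.77), 0.791 on d22 (0.728 to 0.86) and 2.07 on d36 (1.89 to 2.27), and d36 over d22 was 2.62 (2.39 to 2.86). Within aerocyte-like cells the ratio to d0 was 1.07 on d15 (0.936 to 1.23), 0.742 on d22 and 1.06 on d36 (0.93 to 1.21). The difference between the 2 classes was not tested.

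The general capillary-like class was not made of the same clusters on each day: a cluster of low UMI counts held 2.13% of endothelial cells on d0, 24.7% on d15, 2.46% on d22 and 21.2% on d36. Its Cdkn1a level was 381 CPM on d0, 603 on d15, 225 on d22 and 849 on d36. The cluster led by Cd74 and other MHC class II genes had 345, 506, 286 and 623 CPM. The cluster led by Hey1, Car2 and Plvap had 390, 536, 302 and 746 CPM. A cluster led by Kit and Vegfa, the lowest of them, had 135, 376, 102 and 388 CPM. A cluster led by Slc39a1 and Marf1 had 465, 698, 404 and 801 CPM. Each of these 5 clusters had the same order of days, with d36 highest and d22 lowest, and their d36 and d22 intervals did not overlap. Other pairs of days did overlap in some clusters, as d15 (265 to 519) and d36 (274 to 533) in the Kit cluster. The remaining clusters of the class, led by Ifit3 and by Gm42477, had fewer than 50 cells on some days and are not given. In the 2 aerocyte-like clusters, Cdkn1a was 941 CPM (806 to 1093) on d36 against 880 (832 to 930) on d0 in the Fibin cluster, and 843 (691 to 1017) against 492 (377 to 630) in the Tbx2 cluster. The near-level Cdkn1a of the whole aerocyte-like class thus joined 2 clusters with unequal ratios and shifting shares.

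Arterial-like cells had 481 CPM of Cdkn1a on d0, 563 on d15, 320 on d22 and 581 on d36, with a d36 over d22 ratio of 1.82 (1.26 to 2.58). Venous-like cells had 353 CPM on d0, 614 on d15 and 280 on d22, and d15 over d0 was 1.74 (1.26 to 2.37). A cluster of cells poor in Malat1, a nuclear transcript, had 112 CPM on d0, 112 on d22 and 326 on d36.

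**Figure D4:**
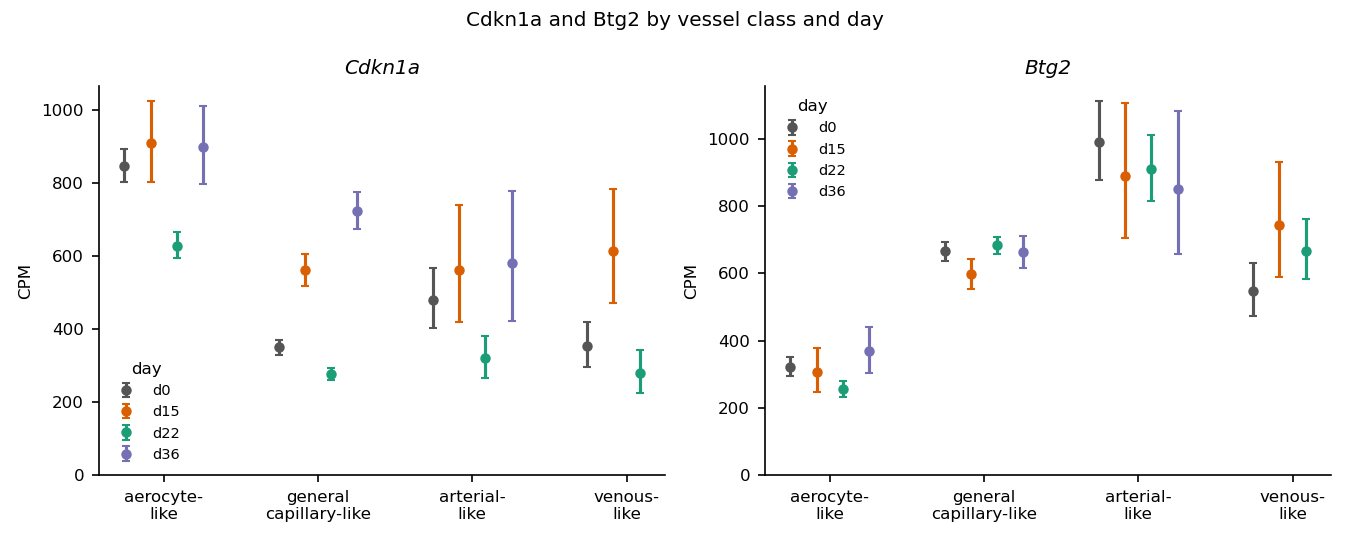
Cdkn1a (left) and Btg2 (right) in CPM (vertical axes, from 0) in 4 vessel classes (horizontal axis) by day (colours), with 95% counting intervals; venous-like cells of d36 are not drawn. Cdkn1a of general capillary-like cells lies at 724 CPM on d36 and 350 CPM on d0, whereas Btg2 differs by class, with aerocyte-like cells at 255 to 368 CPM and arterial-like cells at 850 to 990 CPM.

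Btg2 was level over the days in the pooled cells and differed between classes. Within a class it could differ between days, as in aerocyte-like cells, where d36 over d22 was 1.44 (1.17 to 1.77). Aerocyte-like cells had 321 CPM on d0, 306 on d15, 255 on d22 and 368 on d36, against 656, 605, 680 and 641 CPM in other endothelial cells, which gave ratios of 0.49, 0.506, 0.374 and 0.573. Arterial-like cells had 990, 890, 910 and 850 CPM, against 544, 537, 546 and 578 CPM in other cells, with ratios of 1.82, 1.66, 1.66 and 1.47, so that d36 alone kept it from the class rule. General capillary-like cells had 665, 597, 683 and 662 CPM. The related antiproliferative genes Btg1 and Btg3 were low in aerocyte-like cells as well, at 66.6 to 119 CPM of Btg1 against 209 to 280 CPM in other cells, and 20.6 to 82.7 CPM of Btg3 against 105 to 182 CPM. Tob1, of the same family, went the other way, with 72.2 to 135 CPM in aerocyte-like cells against 39.1 to 52.2 CPM.

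The remaining genes were too sparse for most class values. Ccng1 in aerocyte-like cells was 10.8 CPM on d22 against 32.5 CPM on d0, a ratio of 0.332 (0.186 to 0.568). In general capillary-like cells it was 12.8 against 19.5 CPM, a ratio of 0.657 (0.447 to 0.962). In thinned cells the ratio was 0.71 in aerocyte-like cells (9 UMIs against 11) and 1.16 in general capillary-like cells (45 UMIs against 30). Both thinned ratios rest on few counts and carry no interval. Mdm2 in aerocyte-like cells was 93.9 CPM on d36 against 51 CPM on d22, a ratio of 1.84 (1.17 to 2.82). Cdkn1b in general capillary-like cells was 49.2 CPM on d15 against 27.2 CPM on d0, a ratio of 1.81 (1.27 to 2.55), whereas in aerocyte-like cells it was 32 against 40.1 CPM. Trp53inp1 had 16 to 194 UMIs in these 2 classes on a day, and 0 to 19 in arterial-like or venous-like cells.

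Other p53 targets were read from a list of 36 genes, of which 24 or 25 were measured in a comparison. On d15 against d0, 3 of 24 were past the size rule, where 12.8% of all measured genes were past it in either direction and 5.45% were lower. All 3 were lower: Polk (7.97 against 12.8 CPM), Pmaip1 (20.9 against 32.6 CPM) and Sesn1 (18.1 against 28.2 CPM). The count in either direction was near the all-gene share. The count of lower genes was above its share, which was not tested. On d22 against d0, Polk was lower, and on d36 against d0, Ercc5 was lower, each as 1 of 25. Over all measured genes, 3.06% were lower on d22 and 7.26% on d36. On d36 against d22, where Cdkn1a was 1.9 times higher, 1 of 24 was past the rule (Gadd45a, lower, at 23.6 against 38.4 CPM). Over all measured genes 13.6% were past it in either direction. Bax, an apoptosis effector and textbook p53 target, had 285, 278, 280 and 284 CPM on d0, d15, d22 and d36. Trp53 itself had 116, 105, 131 and 113 CPM. None of the listed p53 targets was past the rule upward on d36, against d0 or against d22. Cdkn1a itself, at 1.45, was inside the rule on d36 against d0. Of the listed targets, 12 of 25 had a ratio above 1 on d36 against d0, and 13 of 24 against d22. Bbc3 had 37.7, 41 and 52.5 CPM on d0, d22 and d36, whereas Phlda3 had 297, 275 and 221 CPM. The part of p53 in the Cdkn1a values was not tested.

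In aerocyte-like cells, 3 of 22 measured p53 targets were higher and 4 lower than in other endothelial cells, where 16% of all measured genes were past the class rule. Phlda3, which encodes an inhibitor of AKT signalling, had 592 to 890 CPM in aerocyte-like cells against 131 to 182 CPM. Pmaip1, the gene of the pro-apoptotic protein Noxa, had 42.4 to 60.2 CPM against 16.5 to 25 CPM, and Tob1 is given above. Apaf1, Ccng2, Ddit4 and Dcxr were lower, with Ccng2, a relative of Ccng1, at 24.9 to 31.5 CPM against 49.2 to 51 CPM. In arterial-like cells 1 of 23 was higher, Cd82, a tetraspanin gene, at 77.8 to 147 CPM against 23.4 to 31.6 CPM, and 2 were lower (Pmaip1 and Tnfrsf10b), where 7.22% of all measured genes were past the class rule.

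Among 9 measured genes of cyclins, CDKs and the Rb family, 2 were lower on d15 than on d0 and none was higher, where 12.8% of all measured genes were past the rule and 5.45% were lower. Ccnd1, which encodes the cyclin D1 partner of the kinases that p15 inhibits, had 113 CPM on d15 against 209 CPM on d0, and 133 CPM on d36. Ccnd1 was a further gene of aerocyte-like cells, with 230 to 339 CPM against 89.1 to 162 CPM, and Ccnd3 had 427 to 584 CPM against 176 to 229 CPM, whereas Cdk6 had 2.59 to 10.4 CPM against 57.6 to 76.9 CPM. Cdk1, the mitotic kinase gene, had 0.58 CPM on d15 against 10.7 CPM on d0; of the proliferating-like cells, 27 were found on d0, 0 on d15, 18 on d22 and 4 on d36. Of 6 measured genes for CDK inhibitors and p27 turnover, 2 were lower on d15 than on d0 and none was higher, beside the same all-gene shares: Cks1b, an adaptor for p27 degradation, at 6.52 against 14.6 CPM, and Cdkn2c, the p18 gene, at 14.2 against 22.2 CPM.

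Genes with the most similar pattern were sought over the 15 day-by-class sums with at least 50 cells, among 5856 genes, by Pearson's r of log2(CPM + 1). The sums share the depth of their day, and r is a description. The nearest to Cdkn2b were Sept4 (0.98), Igfbp7 (0.98) and Clu (0.97). The nearest to Btg2 were Avpi1, Aldh2 and Tm4sf1 (each 0.97), and to Cdkn1a Map7d1 (0.91), Dnaja1 (0.89) and Slc9a3r2 (0.89). The sparse genes had Ap1s2 (0.96) nearest to Mdm2, Sdhc (0.83) to Ccng1, Cwc25 (0.94) to Trp53inp1 and Rraga (0.88) to Cdkn1b.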

How the data were processed

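Lung endothelial cells were sorted and sequenced with the 10x Genomics 3′ v2 kit, per the labels' protocols, and processed with Cell Ranger 2.1.1 on mm10, per the submitters' processing notes. The authors deposited 1 matrix of UMI counts for all cells; how the 4 libraries of a day were joined is not given in the sources used here. The members and lists were chosen with earlier results of these data known.

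Cells under 300 genes or over 10% mitochondrial UMIs (19), in clusters of other cell types (145) or with at least 2% of UMIs from another type's markers (4) were left out; no doublet caller was run. Cells were clustered with scanpy 1.11.5 (2000 variable genes, 30 components, 15 neighbours, Leiden resolution 1.0) without the members, the lists, mitochondrial or ribosomal protein genes. The markers stood in the design, but the rules for naming clusters from them were chosen after the clusters were seen. UMI counts were summed by day and class and given as CPM of the sum, with no scaling for transcript length, so levels are not compared between genes. Ratios carry exact binomial intervals and levels exact Poisson intervals, and printed class shares exact Clopper-Pearson intervals. The intervals were planned on the counts as deposited; counts were divided by 4 for them after the entries were seen to pile up at 4, and scripts were tested on simulated data. edgeR 4.0.16 served only for TMM factors. With 1 pooled sample per day no test was made. All 7 genes are named, with genes past the rules from each list (up to 4 per comparison of days). Up to 3 genes most alike per member are also named. Bax, Trp53, Bbc3 and Fos were added after their values were seen. Alternatives are given in the closing section.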

Additional observations from a re-analysis of the deposited data

Results flagged for a closer look

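Btg2 moved in opposite directions in different classes under the same contrast. On d15 over d0 its ratio was 1.36 in venous-like cells (1.03 to 1.78; 745 against 548 CPM) and 0.898 in general capillary-like cells (0.823 to 0.979; 597 against 665 CPM). On d22 over d0 its ratio was 1.22 in venous-like cells (1 to 1.48; 667 against 548 CPM) and 0.792 in aerocyte-like cells (0.697 to 0.9; 255 against 321 CPM). The difference between the classes was not tested, and venous-like cells numbered 60 on d15, 127 on d22 and 140 on d0.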

How the results depend on the processing

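Most counts of genes past the rule kept within 1.5 times of the reported ones. On d15 against d0 the reported 3 became 1 under a minimum of 50 CPM and 200 UMIs. On d22 against d0 the reported 1 became 0 in cells thinned to 1200 UMIs, under that minimum and in cells of 2600 to 6000 UMIs. On d36 against d0 the reported 1 became 2 with all deposited cells and in cells of at least 2600 UMIs (Ccng1 lower added), and likewise 2 with thinned cells, classes weighted alike, cells weighted equally and cells of 2600 to 6000 UMIs (Cdkn1a higher added). On d22 against d15 the reported 3, and on d36 against d22 the reported 2, became 1 in cells of 2600 to 6000 UMIs. On d36 against d15 the reported 2 became 1 with all deposited cells, at least 2600 UMIs or cells weighted equally, and 0 with thinning, the higher minimum or cells of 2600 to 6000 UMIs. Among classes, arterial-like cells had 2 at Leiden resolution 0.5 and with cells weighted equally (Btg2 higher added), and venous-like cells 2 with no minimum. The causes were not tested. A like count can hold other genes: in thinned cells the 2 on d15 against d0 were Cdkn2b and Cdkn1b. Of 497 single-gene alternatives, 455 moved by less than their interval and 42 by more; none turned a called direction. The range of 2600 to 6000 UMIs, leaving out Malat1-poor cells and dividing counts by 4 were chosen after seeing the data; the last 2 changed none of the counts.

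No paired analysis was possible because the cell names carry the day and not the library, and leaving out 1 library at a time was not run for the same reason. Without replicates, animals, libraries and days cannot be told apart. Ccng1, Trp53inp1, Mdm2 and Cdkn1b were limited by depth.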

Other observations

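Proliferating-like cells, too few for the class comparison (27 on d0, 18 on d22 and 4 on d36), had 942 CPM of Cdkn1a on d0, 1281 on d22 and 743 on d36. The INK4 family gene Cdkn2c had 449, 814 and 503 CPM in the same cells.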
